A study of Mus musculus with 6 samples.

Results

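The Bcl2 family decides, at the outer mitochondrial membrane, whether a cell enters apoptosis, and 10 of its genes were followed here among the 22095 genes of the table. They were taken by symbol: the effectors Bax, Bak1 and Bok, the BH3-only genes Bbc3 (Puma), Pmaip1 (Noxa) and Bcl2l11 (Bim), and the anti-apoptotic genes Bcl2, Bcl2l1 (Bcl-xL), Bcl2l2 (Bcl-w) and Mcl1. All 10 were found, and all 10 had enough reads to be tested. The mice were of the outbred ICR stock, with no genotype given, and had a silica gel plug put into the left naris at postnatal day 30. Olfactory bulbs were dissected 60 days later, after perfusion, and their polyadenylated RNA was sequenced from 3 mice, numbered 1037, 1038 and 1039. Left bulbs are those of the plugged naris, and right bulbs, from the same animals, those of the open naris. Every animal was plugged, so a left and right difference that is present without a plug cannot be told apart from an effect of the plug. The comparison used 5 libraries, 2 of left bulbs (1037 and 1039) and 3 of right bulbs. The sixth library, labelled left 1038, went against its label and is shown apart.

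As background, the anti-apoptotic proteins bind and hold in check the effectors, which otherwise form pores in the outer membrane and release cytochrome c. BH3-only proteins are the sensors of this pathway: they occupy the groove of the anti-apoptotic proteins or act on the effectors directly, and many of them are controlled at the level of transcription. In the olfactory bulb, interneurons are added throughout life, and a large share of the newly arrived cells die by apoptosis. Plugging a naris is a classical way to deprive these cells of sensory input.

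The libraries held 14571453 to 15590938 counts, and 3 counts, taken as the upper limit behind a gene at 0, were worth 0.192 to 0.206 CPM (a gene's count divided by the library total on the usual CPM scale). Intervals on counts cover counting error only. All 8 bulb interneuron markers were detected in each of the 5 libraries, with summed levels of 3110 and 3569 CPM in left bulbs and 3646 to 3991 CPM in right bulbs. In the library labelled left 1038 their sum was 1048 CPM and Dlx2 was at 0, while the granule cell list of the cerebellum summed to 4858 CPM, against 160.3 to 238.6 CPM in the other 5. Its Purkinje cell list summed to 5438 CPM, against 205.3 to 224.6 CPM. The levels below are CPM scaled by library totals, while fold changes are from edgeR's quasi-likelihood test with TMM scaling, left over right. TMM lowers left bulbs against right bulbs: the median log2 fold change over all genes tested was 0.005 with TMM and 0.087 with totals alone.

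Levels of different genes were compared per kilobase of exon. In right bulbs Mcl1 was the highest member at 36.2 ± 3.38 CPM per kb (SD, n = 3), followed by Bcl2l2 at 23.8 ± 1.09 and Bcl2l1 at 16.1 ± 0.404 CPM per kb. Each of these lay clear of its neighbour in all 3 libraries. Bax followed at a mean of 10.0 CPM per kb (8.79 to 11.2 in the 3 libraries), also clear of the next gene. Bak1 at 6.98 ± 0.561, Bcl2 at 6.07 ± 0.461 and Bok at 5.93 ± 0.637 CPM per kb could not be ordered, since each overlapped its neighbour. Bbc3 at 2.68 ± 0.464 overlapped Bcl2l11 at 1.87 ± 0.332, and Pmaip1 was lowest at 1.14 ± 0.482 CPM per kb. The 3 anti-apoptotic genes Mcl1, Bcl2l2 and Bcl2l1 therefore lay above every effector, and every effector above every BH3-only gene, in right bulbs. In left bulbs the same ranks held apart from Bok, which stood next after Bax at 8.28 ± 0.286 CPM per kb (SD, n = 2), above Bak1 at 7.5 ± 0.623 and Bcl2 at 4.77 ± 0.409.

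With the plug, Bcl2 and Bcl2l2 were lower in left bulbs, and no member passed the test in the other direction. Of the 10 members, 2 fell and 0 rose at an adjusted p under 0.05. An unadjusted p under 0.05 was found for 5 members, and for 3573 of all 14412 genes tested. Over all 14412 genes tested, 9.62% were called, 6.46% lower and 3.16% higher in left bulbs, and with 10 genes a count of 2 is not far from that background. The split of all calls depends on the scaling, with 456 higher and 931 lower under TMM and 975 higher and 589 lower under library totals. The split of the members turned as well: under library totals 2 were called higher (Bbc3 and Bcl2l11) and 1 lower (Bcl2). DESeq2 without the mouse as a term called 1 member, Bcl2. All 6 pro-death members had a positive log2 fold change and all 4 anti-apoptotic members a negative one, with medians of 0.44 and -0.14. Those signs include values close to 0. With library totals Bcl2l1 and Mcl1 turned positive. The sign of Bak1 turned without left 1037, without right 1037 or with all 6 libraries. A positive sign was found for 51% of all genes tested. The 4 tested BH3-only genes outside the members were split, with 2 positive and 2 negative.

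**Figure D1:**
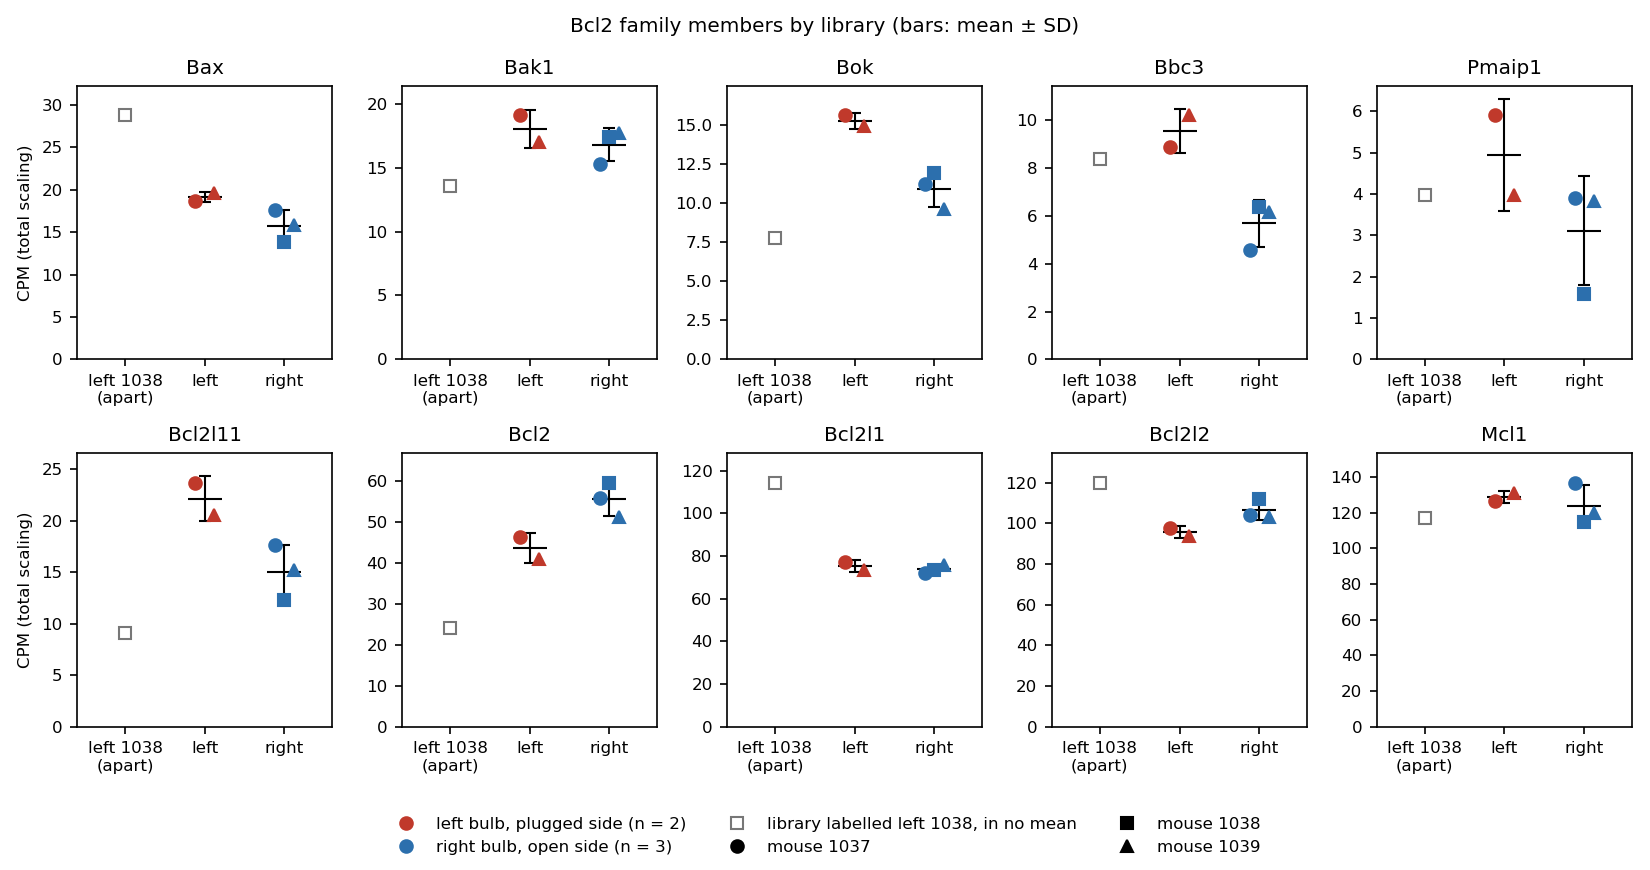
Levels of the 10 members in each library, in CPM scaled by library totals, with the library labelled left 1038 (open squares), left bulbs (red) and right bulbs (blue) in that order, marker shape for the mouse, and bars for mean ± SD. On this scale left and right bulbs separate for 7 members, while Mcl1, Bcl2l1 and Bak1 overlap. Bax, Bok, Bbc3, Pmaip1 and Bcl2l11 are higher and Bcl2 and Bcl2l2 lower in left bulbs. Of all genes tested, 33.2% separate with left bulbs higher and 13.2% with left bulbs lower. With TMM scaling Bax and Pmaip1 overlap as well.

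Among the effectors, Bok had the smallest p, although it did not pass. Bok is an effector that can permeabilise membranes without Bax and Bak. It had 15.6 and 14.9 CPM in left bulbs 1037 and 1039, against 11.2, 11.9 and 9.62 CPM in right bulbs 1037, 1038 and 1039. Both left values lay above all right values, and the left bulb was higher within mouse 1037 (log2 difference 0.40, TMM scaled as are all within-mouse differences below) and within mouse 1039 (0.55). The fold change was 1.32 (log2 0.40, SE 0.14, 95% interval 0.095 to 0.705, adjusted p = 0.102). Bok lies on chromosome 1, 93685660 to 93695764 (GRCm38, plus strand).

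Bax, the soluble effector that moves to mitochondria on activation, had 18.7 and 19.6 CPM in left bulbs and 17.6, 13.8 and 15.8 CPM in right bulbs. The groups did not overlap on this scale but did with TMM scaling, and within mouse 1037 the bulbs were alike (log2 difference -0.003), against 0.235 in mouse 1039. Its log2 fold change was 0.20 (SE 0.13, adjusted p = 0.377). Bak1, the effector that resides in the outer membrane, had 19.1 and 17.0 CPM in left bulbs and 15.3, 17.4 and 17.7 CPM in right bulbs, which overlap. Its log2 fold change of 0.02 (95% interval -0.24 to 0.29) was -0.08 to 0.12 over the alternatives. The whole span of Bak1 on chromosome 17 is shared with Ggnbp1 on the opposite strand, which had 7.1 to 11.4 CPM in the 5 libraries, and the sources used here do not say whether counting used the strand.

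The BH3-only members were each higher in left bulbs by value, and none passed. Bbc3 is a target of p53 and of FoxO factors, and its product binds all anti-apoptotic family proteins. It had 8.88 and 10.2 CPM in left bulbs (137 and 153 reads), against 4.55, 6.36 and 6.14 CPM in right bulbs (71, 96 and 90 reads). The groups did not overlap, also with TMM scaling, and the left bulb was higher in mouse 1037 (log2 difference 0.87) and in mouse 1039 (0.65). The fold change was 1.58 (log2 0.66, SE 0.19, 95% interval 0.25 to 1.08, adjusted p = 0.0525). This value lies just outside the threshold: with the mouse as a block in a paired fit, which calls 10.8% of all genes, it passed (log2 0.76, adjusted p = 0.0193). It also passed without a filter, with a filter of 1 CPM, with limma-voom and with library totals (adjusted p = 0.0433, 0.0467, 0.0483 and 0.0348), the last of which called 10.9% of all genes. It did not pass with RLE size factors (0.0506), with DESeq2 (0.0826), with all 6 libraries without or with the block (0.554 and 0.697) or when any single library was left out (adjusted p up to 0.192). DESeq2 with the block gave it no adjusted p.

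Bcl2l11, whose product is a potent activator of Bax and Bak and which FoxO factors induce when trophic support is withdrawn, had 23.7 and 20.6 CPM in left bulbs. Right bulbs had 17.6, 12.3 and 15.2 CPM. Again both left values exceeded all right values, with within-mouse log2 differences of 0.34 and 0.37. Its log2 fold change was 0.48 (SE 0.15, 95% interval 0.14 to 0.82, adjusted p = 0.081), and it passed under library totals alone (log2 0.56, adjusted p = 0.0422). Pmaip1, whose product neutralises Mcl1, was the least abundant member, with 5.9 and 3.98 CPM in left bulbs and 3.91, 1.59 and 3.82 CPM in right bulbs. The low right value came from 24 reads in mouse 1038 (95% Poisson interval 1.02 to 2.37 CPM), and in mouse 1039 each bulb lay within the counting interval of the other. The log2 fold change of Pmaip1 was 0.59 with an SE of 0.35 (adjusted p = 0.348), from 0.25 to 0.85 over the alternatives.

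The start regions of Bbc3 and Bcl2l11 are shown because these genes are known targets of FoxO and other factors and had the smallest p among the BH3-only members. Sequences are from RefSeq (GRCm38.p6), read along the gene, up to 250 bases before a RefSeq start site, and hold no base of an annotated exon of their gene. Capitals mark matches, on either strand, to the GC box GGGCGG, to TGACG of the CREB site, to the FoxO site GTAAACA and to the p53 consensus motif. The Bbc3 stretch is chr7:16309333-16309582 on the plus strand, inside the first intron of the gene as GENCODE annotates it, and the Bcl2l11 stretch is chr2:128125788-128126037 on the plus strand.
Bbc3: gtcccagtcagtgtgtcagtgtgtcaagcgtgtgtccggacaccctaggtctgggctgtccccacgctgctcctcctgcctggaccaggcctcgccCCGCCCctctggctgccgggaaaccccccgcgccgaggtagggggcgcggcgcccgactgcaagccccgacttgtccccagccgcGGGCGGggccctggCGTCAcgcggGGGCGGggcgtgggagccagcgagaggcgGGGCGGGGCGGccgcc
Bcl2l11: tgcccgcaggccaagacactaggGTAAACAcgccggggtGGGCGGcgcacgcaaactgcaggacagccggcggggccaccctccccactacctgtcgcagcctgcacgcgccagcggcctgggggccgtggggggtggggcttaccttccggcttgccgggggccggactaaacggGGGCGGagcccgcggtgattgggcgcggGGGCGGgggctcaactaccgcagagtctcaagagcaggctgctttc
Bbc3 held 5 GC boxes, of which the last pair overlap, and 1 TGACG match, which reads CGTCA on the strand shown. Bcl2l11 held 3 GC boxes and 1 FoxO site, GTAAACA, 227 bases before the start. Of 32851 mouse start regions of the same 250 bases, 32.7% hold a GC box, 17.8% a TGACG, 3.17% the FoxO site and 7.13% the p53 motif. In the 14 start regions that RefSeq lists for 9 of the members, 10, 2, 2 and 1 did. The p53 motif was in the Bax region and the second FoxO site in another start region of Bbc3. None of these matches is a shown binding site.

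Among the anti-apoptotic members, Bcl2 fell by 25.7% in left bulbs with TMM scaling. With library totals its log2 fold change was -0.35 (edgeR, adjusted p = 0.0411). Bcl2, the founding member of the family, had 46.3 and 41.0 CPM in left bulbs, against 55.9, 59.6 and 51.2 CPM in right bulbs. Both left values lay below all right values, and the left bulb was lower within mouse 1037 (log2 difference -0.36) and within mouse 1039 (-0.40). The means were 43.7 ± 3.75 CPM (SD, n = 2) in left bulbs and 55.6 ± 4.22 CPM (SD, n = 3) in right bulbs, with a log2 fold change of -0.43 (SE 0.09, 95% interval -0.64 to -0.22, adjusted p = 0.0202). The sign was negative under all 15 alternatives (-0.68 to -0.33), and the call held in 9 of them, the block included (adjusted p = 0.0088). Leaving out left 1039, right 1037 or right 1038 ended the call (adjusted p = 0.113, 0.0735 and 0.0756), as did DESeq2 with the block (adjusted p = 0.294) and the use of all 6 libraries (adjusted p = 0.554, or 0.697 with the block). Bcl2 spans 106538178 to 106714274 on the minus strand of chromosome 1 and overlaps no other gene of the table. It does overlap 3 annotated genes that the table does not list.

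Bcl2l2, which is abundant in adult neurons, fell by 14.9% in left bulbs in the test as designed, with TMM scaling. With library totals its log2 fold change was -0.15 (edgeR, adjusted p = 0.15). It had 97.9 and 93.7 CPM in left bulbs and 103.8, 111.9 and 103.2 CPM in right bulbs. The groups did not overlap, and the within-mouse log2 differences were -0.18 and -0.22. The log2 fold change was -0.23 (SE 0.06, 95% interval -0.37 to -0.09, adjusted p = 0.047). This call held in 0 of 15 alternatives, with adjusted p from 0.0514 to 0.837, and with the block it was -0.20 (adjusted p = 0.083). Bcl2l2 lies on chromosome 14, 54883377 to 54888234. Nearly all of it is shared with the read-through gene Gm20521 on the same strand, which was listed at 0 in every library, so how reads of the pair were assigned is not known.

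Mcl1, a short-lived protein that neurons need for survival during development, had 126.5 and 131.2 CPM in left bulbs and 136.8, 114.9 and 119.6 CPM in right bulbs. The right values spanned the left ones. The log2 fold change was -0.025 (95% interval -0.20 to 0.15, adjusted p = 0.886). Bcl2l1, whose product is the major anti-apoptotic protein of mature neurons, had 77.3 and 73.5 CPM in left bulbs and 72.2, 73.7 and 75.9 CPM in right bulbs. These overlap as well, with a log2 fold change of -0.05 (95% interval -0.19 to 0.09, adjusted p = 0.656).

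The start regions of the pair that fell are given next for comparison, with capitals as above. The Bcl2 stretch is chr1:106714291-106714540 on the minus strand, and the Bcl2l2 stretch is chr14:54883175-54883376 on the plus strand, which holds 202 bases because an annotated exon starts there.
Bcl2: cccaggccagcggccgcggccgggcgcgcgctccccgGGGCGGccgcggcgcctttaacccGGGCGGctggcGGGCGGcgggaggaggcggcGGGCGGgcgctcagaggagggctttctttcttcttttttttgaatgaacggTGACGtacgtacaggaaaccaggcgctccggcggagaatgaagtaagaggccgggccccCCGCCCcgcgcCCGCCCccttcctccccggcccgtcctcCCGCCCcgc
Bcl2l2: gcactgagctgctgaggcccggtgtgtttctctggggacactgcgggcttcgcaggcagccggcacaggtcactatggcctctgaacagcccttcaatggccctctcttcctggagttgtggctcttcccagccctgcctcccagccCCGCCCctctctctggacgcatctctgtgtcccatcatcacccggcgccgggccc
Bcl2 held 7 GC boxes and a TGACG 107 bases before the start. Bcl2l2 held 1 GC box. Neither held the FoxO site or the p53 motif in these letters. The G and C content of the full windows was 74.8% for Bcl2, 66% for Bcl2l2, 76.4% for Bbc3 and 72% for Bcl2l11.

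**Figure D2:**
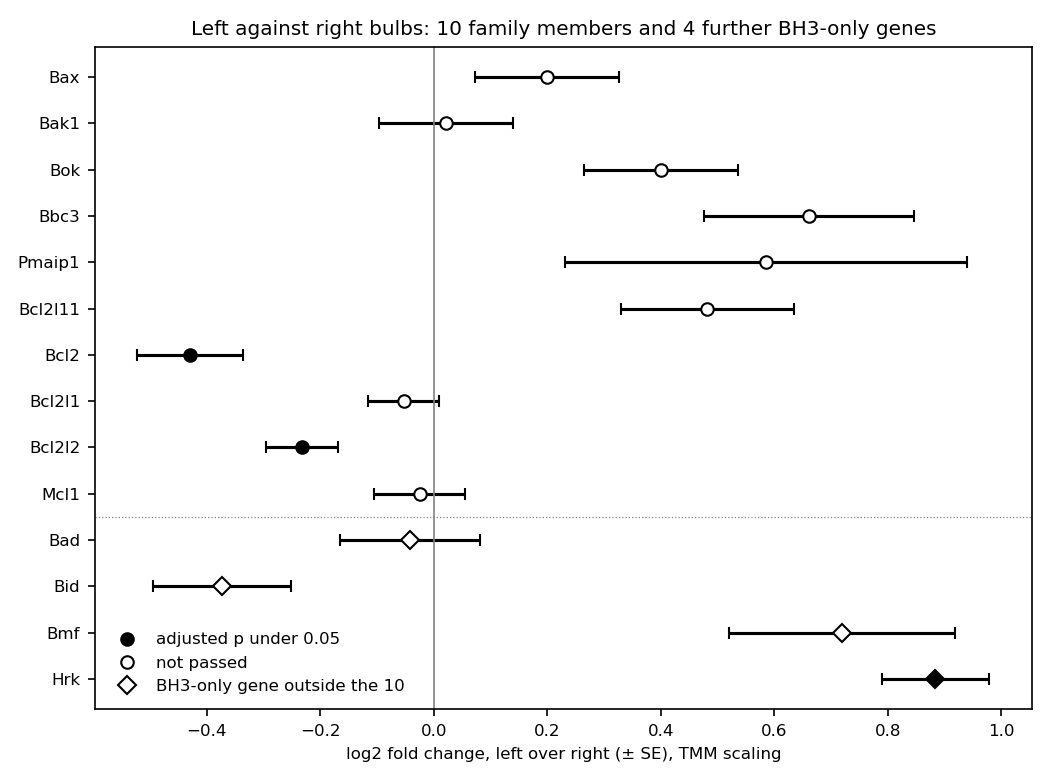
Log2 fold changes, left over right, with SE from edgeR's quasi-likelihood test, for the 10 members (circles) and 4 further BH3-only genes (diamonds), filled where the adjusted p was under 0.05. Bcl2 at -0.43 and Bcl2l2 at -0.23 are the filled members, and Hrk at 0.88 is the filled gene outside the 10.

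Left and right values were also counted by whether they overlapped. On the CPM scale 5 members had both left values above all right values and 2 had both below, where 33.2% and 13.2% of all genes tested did so. With TMM scaling the counts were 3 above (Bok, Bbc3 and Bcl2l11) and 2 below (Bcl2 and Bcl2l2), against 20.1% and 21.9% of all genes. In the 2 mice with both bulbs in the comparison, 5 of 10 members had the same sign in each mouse with TMM scaling. They are those same 5 genes, and sides that do not overlap give the same sign in each mouse by construction. With library totals 7 of 10 did, Bax and Pmaip1 being the others, which again are the members whose sides do not overlap. The share of all genes with the same sign in each mouse was not counted.

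Members were also summed by role. These sums depend on scaling, while ratios within a library do not. Summed over the 3 BH3-only members, left bulbs held 38.5 and 34.8 CPM and right bulbs 26.0, 20.2 and 25.1 CPM. The 3 effectors summed to 53.4 and 51.5 CPM in left bulbs and 44.0, 43.2 and 43.2 CPM in right bulbs. The 4 anti-apoptotic members summed to 348.0 and 339.5 CPM in left bulbs, against 368.7, 360.1 and 349.9 CPM in right bulbs. All 3 sums separated the sides, and of the 3 the gap was largest for the BH3-only sum, 54% higher in left bulbs (45.5% with TMM scaling). Of single genes tested, 33.2% separated with left bulbs higher and 13.2% with left bulbs lower on the CPM scale. All 3 BH3-only members separated the same way on that scale, so their sum had to. The sum leaves out Bid and Bad, with log2 fold changes of -0.37 and -0.04, and Hrk and Bmf, with 0.88 and 0.72.

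Counts of the anti-apoptotic members were 3.79 and 3.93 times those of the 6 pro-death members in left bulbs and 5.26, 5.68 and 5.12 times in right bulbs. Against the BH3-only members alone the ratios were 9.04 and 9.76 in left bulbs and 14.2, 17.8 and 13.9 in right bulbs. Bcl2 over Bcl2l11 stood at a log2 count ratio of 0.966 and 0.991 in left bulbs and at 1.67, 2.28 and 1.76 in right bulbs. Bcl2 over Bax stood at 1.31 and 1.06 in left bulbs and at 1.67, 2.11 and 1.69 in right bulbs. Bcl2l1 over Bax overlapped between the sides, with 2.05 and 1.9 in left bulbs and 2.04, 2.41 and 2.26 in right bulbs. These ratios rest on the same counts as the values above and were given no test. Apart from Bcl2l1 over Bax, each ratio above sets counts lower in left bulbs over counts higher there, so it had to separate. Mcl1 over Pmaip1 also overlapped, with 4.42 and 5.04 in left bulbs and 5.13, 6.17 and 4.97 in right bulbs. Bcl2 over Bbc3 and Mcl1 over Bbc3 separated, with left bulbs lower. The ratios are not divided by exon length, so they compare libraries and do not rank the members by level.

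**Figure D3:**
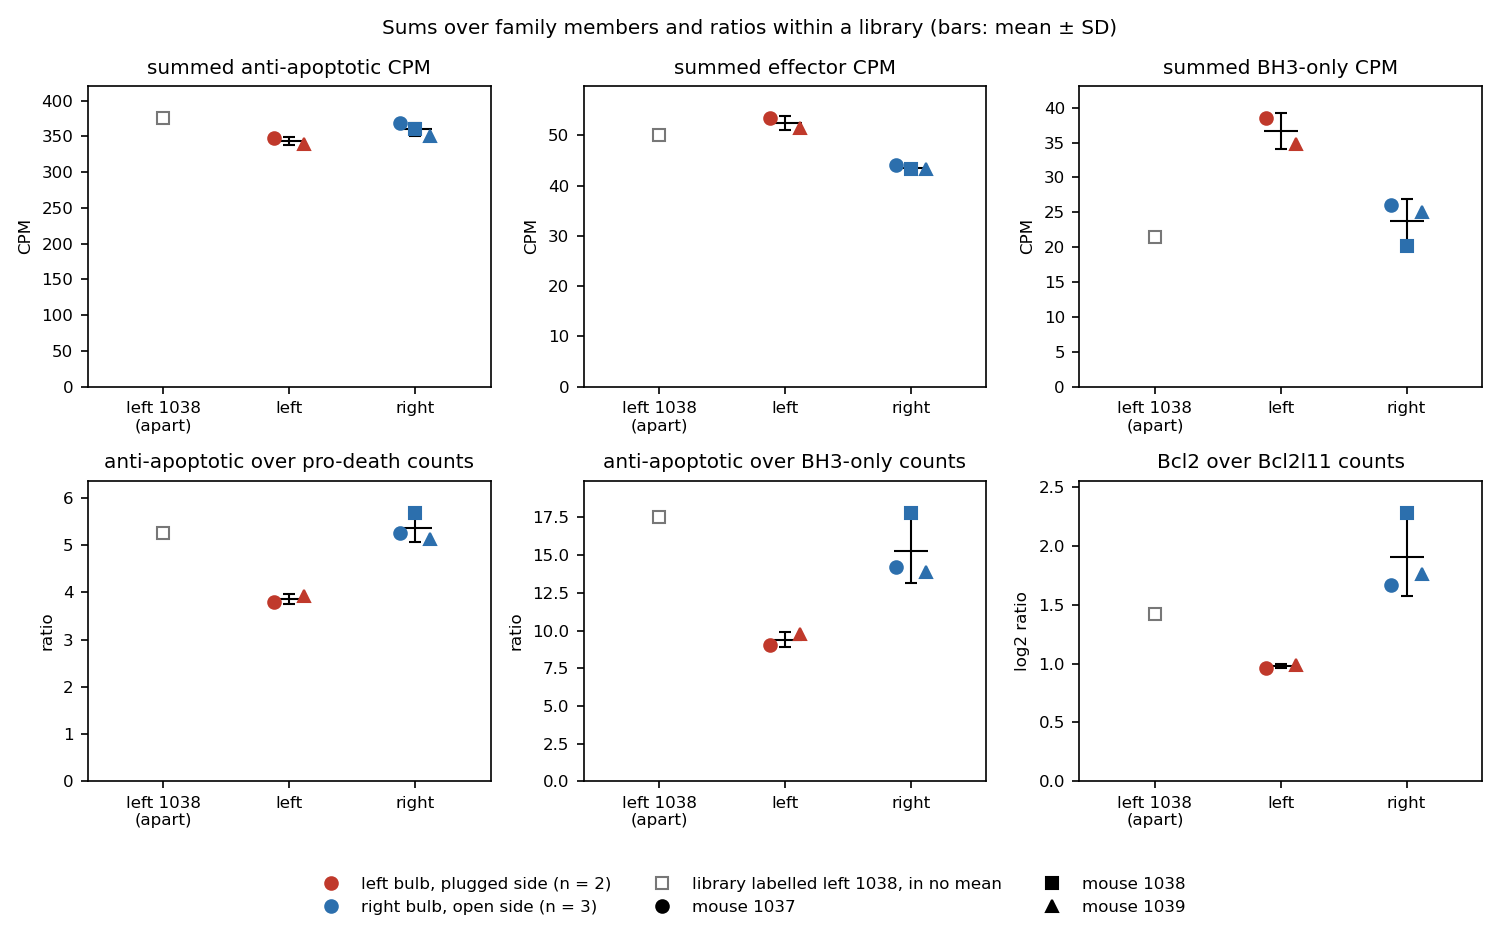
Summed CPM of the anti-apoptotic, effector and BH3-only members, and ratios between counts of members within a library, for the library labelled left 1038 (open squares), left bulbs (red) and right bulbs (blue), with bars for mean ± SD. In left bulbs the anti-apoptotic over pro-death ratio is 3.79 and 3.93, below the 5.12 to 5.68 of right bulbs. The sums behind this ratio already separate the sides in opposite directions.

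The rest of the pathway was read from 11 lists that hold 93 further genes, of which 81 were tested. Of these, 2 rose and 5 fell, which is 8.64% and close to the 9.62% of all genes, and their median log2 fold change was -0.02, where the median over all genes tested was 0.005. Among BH3-only genes outside the 10 members, Hrk (Harakiri) was the gene that passed. Hrk is a BH3-only gene of neurons, induced through JNK signalling in neurons deprived of trophic factor. It had 29.1 and 29.9 CPM in left bulbs, against 15.3, 14.9 and 15.0 CPM in right bulbs, a separation larger than the spread within either side. The log2 fold change was 0.88 (SE 0.10, adjusted p = 0.00101), and the call held in 13 of 15 alternatives, among them all 5 that left out a library. Hrk lies on chromosome 5, 118164648 to 118189478.

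Bmf, a BH3-only gene whose product is tied to the cytoskeleton until it is released, had 6.8 and 9.36 CPM in left bulbs and 4.87, 4.11 and 4.91 CPM in right bulbs (log2 0.72, SE 0.20, adjusted p = 0.0508). Bid, which links death receptors to mitochondria, went the other way by value, with 13.0 and 13.3 CPM in left bulbs and 15.1, 17.4 and 15.8 CPM in right bulbs (log2 -0.37, adjusted p = 0.0872). Bad, a BH3-only gene regulated by phosphorylation of its product, had a log2 fold change of -0.04. Bik was not tested: it had 3 and 6 reads in left bulbs and 0 reads in each right bulb. Of the 7 tested BH3-only genes, members included, 1 rose and 0 fell. The 4 further anti-apoptotic genes, Bcl2l10 and 3 near-identical Bcl2a1 copies, had too few reads for a test. Of 8 tested Bcl2-like genes, among them the mitophagy receptors Bnip3 and Bnip3l, 0 passed, with a median of -0.04.

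In the list of apoptosome and mitochondrial release genes, 2 of 12 genes fell and 0 rose. Of all genes tested, 6.46% fell and 3.16% rose. Cycs, cytochrome c, which carries electrons and triggers the apoptosome when released, had 123.2 and 120.0 CPM in left bulbs and 144.7, 141.8 and 148.4 CPM in right bulbs (log2 -0.34, SE 0.06, adjusted p = 0.00641). Cycs has processed pseudogenes, so its read count is uncertain. Vdac1, a channel of the outer membrane, had 346.4 and 359.9 CPM in left bulbs and 404.6, 399.3 and 378.8 CPM in right bulbs (log2 -0.24, SE 0.06, adjusted p = 0.0338). That call held without right 1039 but ended without left 1037, left 1039, right 1037 or right 1038 (adjusted p = 0.112, 0.0656, 0.126 and 0.116). It also ended with library totals (log2 -0.16, adjusted p = 0.107) and, for Vdac1 and Cycs, with DESeq2 and the block (adjusted p = 0.247 and 0.0672). Apaf1 and Casp9, which form the apoptosome with cytochrome c, had log2 fold changes of 0.09 and 0.02. Of 8 caspases, 0 passed, 7 had a positive sign, as did 51% of all genes tested, and the median was 0.27. None of 7 tested inhibitors of apoptosis and none of 8 tested death receptors and adaptors passed, with medians of 0.14 and 0.10.

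In the p53 list, 1 of 15 tested genes rose and 1 fell. Cdkn1a, the p53 target p21 that arrests the cell cycle, had 61.4 and 64.4 CPM in left bulbs and 100.3, 89.0 and 88.7 CPM in right bulbs (log2 -0.64, SE 0.08, adjusted p = 0.00144). Mdm4, an inhibitor of p53, had 281.1 and 263.9 CPM in left bulbs and 210.1, 192.7 and 205.5 CPM in right bulbs (log2 0.34, SE 0.06, adjusted p = 0.00889). Both calls held when any single library was left out, and that of Mdm4 ended with DESeq2 and the block (adjusted p = 0.0574). Trp53 itself had a log2 fold change of 0.30 (adjusted p = 0.155), and Mdm2, also a p53 target, 0.16 (adjusted p = 0.192). The median of the list was -0.05.

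Of 15 stress and FoxO regulators of BH3-only genes, 1 fell and 0 rose. That gene was Mapk10, the JNK of neurons (JNK3), with 143.2 and 135.0 CPM in left bulbs and 167.2, 172.1 and 159.6 CPM in right bulbs (log2 -0.34, adjusted p = 0.00899). Its call ended without left 1039 (adjusted p = 0.0578) and with DESeq2 and the block (adjusted p = 0.107). Jun, Foxo1 and Foxo3, transcription factors upstream of BH3-only genes, had log2 fold changes of 0.13, -0.22 and 0.11, and 0 of them passed. Among 4 ubiquitin enzymes that act on Mcl1 protein, Fbxw7, which marks Mcl1 for degradation, fell (log2 -0.39, SE 0.07, adjusted p = 0.00723). Fbxw7 had 139.8 and 155.7 CPM in left bulbs and 187.9, 183.8 and 175.2 CPM in right bulbs, and its span overlaps that of Gm37240.

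**Figure D4:**
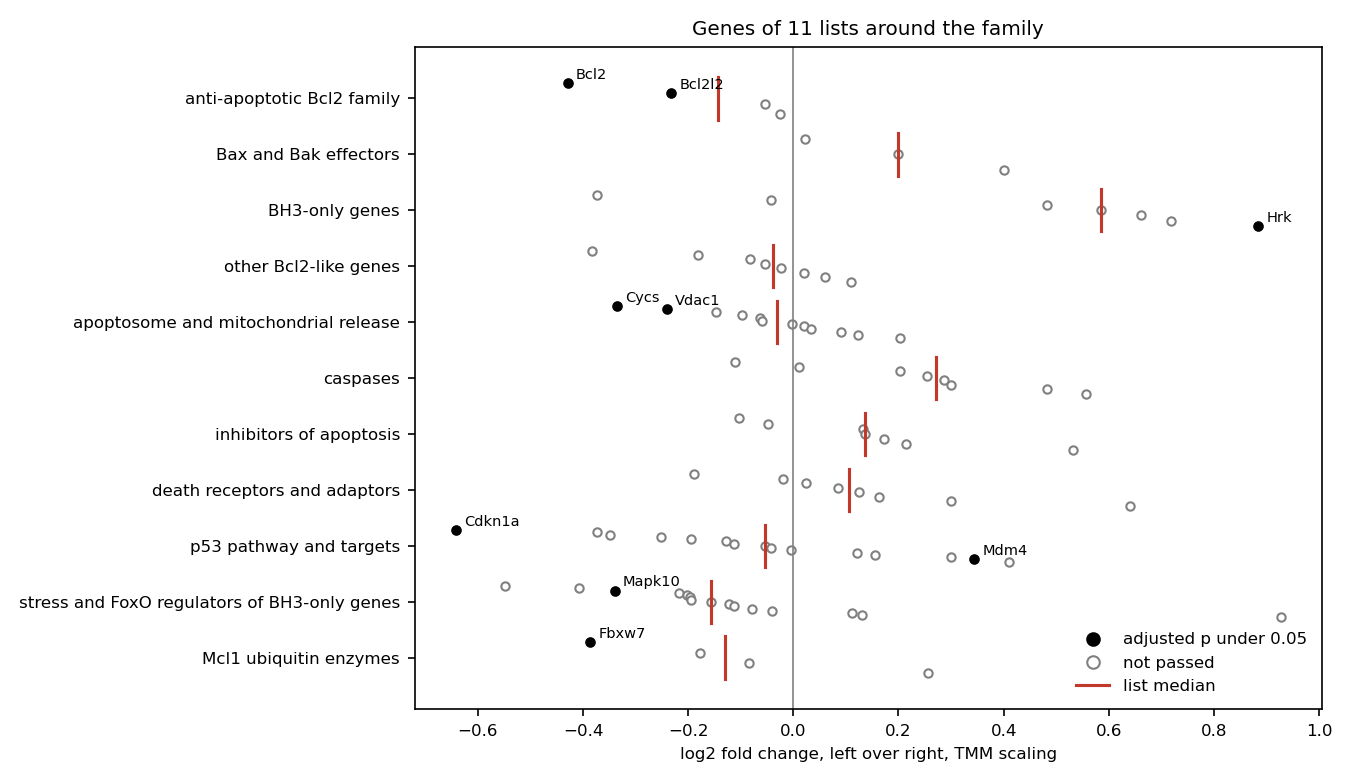
Log2 fold changes, left over right, of every tested gene in the 11 lists, members included, with filled points at an adjusted p under 0.05 and a red line at each list's median. The caspases sit mostly right of 0 with none filled, and Hrk and Cdkn1a are the outermost filled genes at 0.88 and -0.64.

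**Figure D5:**
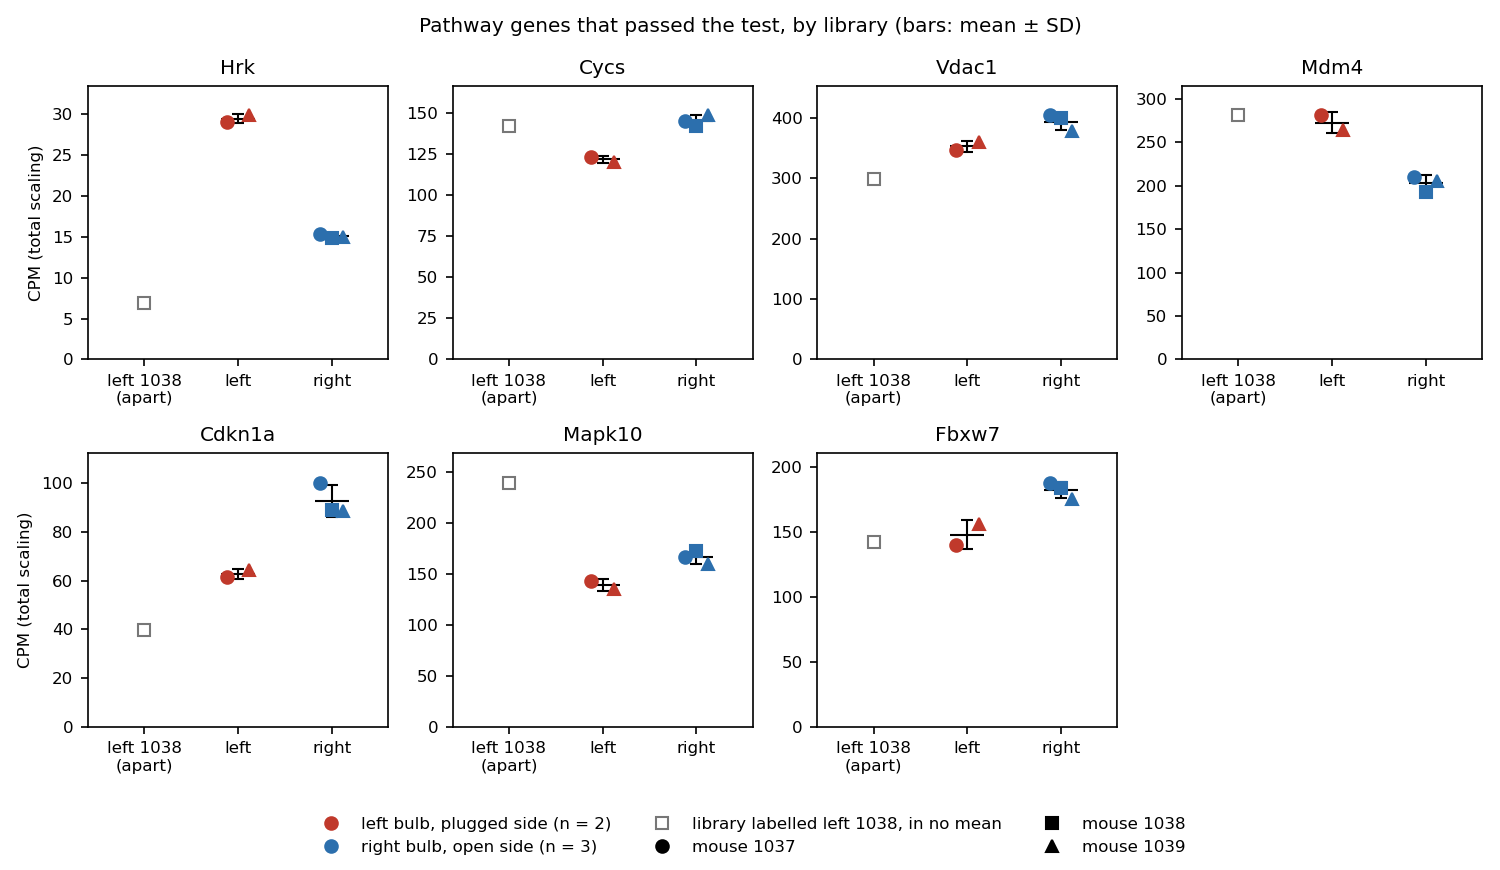
CPM by library of the 7 pathway genes outside the members that passed, for the library labelled left 1038 (open squares), left bulbs (red) and right bulbs (blue), with bars for mean ± SD. Hrk stands at 29.1 and 29.9 CPM in left bulbs and at 14.9 to 15.3 CPM in right bulbs.

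Several cell type marker lists also differed between the sides. Their sums are CPM scaled by library totals, on which 33.2% of single genes tested separated with left bulbs higher and 13.2% with left bulbs lower. Marker sums with TMM scaling were not computed, so small gaps, as for the Purkinje cell list, depend on the scaling used. The calls are from the TMM fit, in which 3.16% of all genes tested were called higher and 6.46% lower. The 6 measured neuroblast markers summed to 1140 and 1291 CPM in left bulbs and to 957.4 to 1072 CPM in right bulbs, with 3 of 6 called higher. The 8 microglia markers summed to 336.4 and 351.0 CPM in left bulbs and to 258.8 to 273.4 CPM in right bulbs, with 2 of 8 called higher. The 6 astrocyte markers summed to 2228 and 2185 CPM in left bulbs and to 1690 to 1858 CPM in right bulbs, with 2 called higher and 1 lower. Of 8 bulb interneuron markers 2 were called lower and 1 higher, and of 6 markers of sensory neuron axons 5 were called lower. That list summed to 109.2 and 53.8 CPM in left bulbs, against 288.9 to 359.7 CPM in right bulbs. The 5 markers of mitral and tufted cells summed to 2539 and 2135 CPM in left bulbs and to 2119 to 2178 CPM in right bulbs, with 2 called higher. Summed markers of oligodendrocytes and of endothelial and mural cells overlapped between the sides, with 0 and 1 of 6 called, that 1 lower. The granule cell list of the cerebellum summed to 238.6 and 234.6 CPM in left bulbs and to 160.3 to 174.4 CPM in right bulbs, with 2 of 4 tested genes called higher. The Purkinje cell list summed to 219.8 and 224.6 CPM in left bulbs and to 205.3 to 211.8 CPM in right bulbs, with 0 of 4 called. Leukocyte markers summed to 15.9 and 19.1 CPM in left bulbs and to 7.49 to 14.9 CPM in right bulbs, with 0 of 4 tested genes called and Cd3e at 0 in at least 1 of the 5 libraries. The part of these shifts in the values of the family was not tested, and in whole bulbs fewer cells of a type and less RNA per cell cannot be told apart.

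In the library labelled left 1038, 7 of the 10 members lay outside the range of the other 5, with 3 above and 4 below it. Of all genes tested 77.2% did, 35.2% above and 42% below, so the count is near the background. Bax, Bcl2l1 and Bcl2 also lay beyond the counting intervals of all right bulbs, for which the share of all genes was not counted. Bcl2 stood at 24.2 CPM (95% Poisson interval 21.7 to 26.8 CPM), against 41.0 to 59.6 CPM in the others. Bcl2l11 stood at 9.06 CPM, against 12.3 to 23.7 CPM, and Bok at 7.75 CPM, against 9.62 to 15.6 CPM. Bcl2l1 was higher, at 114.5 CPM, against 72.2 to 77.3 CPM, and Bax stood at 28.8 CPM, against 13.8 to 19.6 CPM. Bcl2 over Bax was therefore at a log2 count ratio of -0.251, against 1.06 to 2.11 in the others. Counts are not divided by exon length, so the sign of this ratio does not rank the genes. Per kilobase of exon Bcl2 lay below Bax in every library, in this library at 2.64 against 18.2 CPM per kb. Hrk was at 6.93 CPM and Bid at 0.892 CPM in it. With this library included, 0 of 10 members and 0% of all 14209 genes tested were called by edgeR, with 2 members and 1196 genes at an unadjusted p under 0.05, and Bcl2, Bcl2l2 and Bbc3 had log2 fold changes of -0.64, -0.08 and 0.635.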

How the data were processed

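Polyadenylated RNA of 6 libraries labelled as bulb, from 3 mice, was measured. The deposited table gives whole-number read counts per gene and library, per the file headers, and RPKM values that equal the counts divided by the deposited gene length and library total (largest difference 3.8e-11). For 78.41% of annotated genes that length matched the whole genomic span, introns included, to within 1 base, so the deposited RPKM was not used. The build GRCm38 and the tools TopHat2, HTSeq 0.6.1p2, cutadapt 1.2.1 and DESeq 1.18.0 are listed, roles unstated, per the submitters' processing notes. Symbols were matched by identifier for 21852 of 22095 genes, and exon lengths are unions of GENCODE M21 exons (GRCm38). Counts were tested with edgeR 4.0.16 in R 4.3.3 (glmQLFit, glmQLFTest, TMM, filterByExpr, side as the only term), adjusted by Benjamini-Hochberg over all genes tested and called under 0.05, two-sided. The SE is the log2 fold change over the square root of F. Alternatives used limma 3.58.1 and DESeq2 1.42.0. Both bulbs of a mouse share its number and are paired by the labels. Their deviations from the side means correlated at 0.233 and 0.248 in mice 1037 and 1039. With 2 left libraries the left deviations mirror each other. Left 1039 to right 1037 and left 1037 to right 1039 therefore gave -0.233 and -0.248 by construction, and the values are not independent. Replicates of a side are different mice. Counts were simulated for left against right over 14412 genes, with 50 genes changed at each fold. Changes of 1.25-fold, 1.5-fold, 2-fold and 4-fold were recovered in 20%, 66%, 80% and 92% of cases. False calls were 10.4% of calls, above the rate of 0.05 aimed for. The draw was not repeated, took its dispersions from these same data and had no pairing of bulbs. Far fewer genes changed in it than were called in the data, so it does not give the false share of the calls above. The members and lists were chosen with earlier results of these data known. Named are all 10 members and the called genes of each list, up to 4. Bmf, Bid, Bad, Bik, Apaf1, Casp9, Trp53, Mdm2, Jun, Foxo1, Foxo3, Bnip3 and Bnip3l were named after their values were seen.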

Additional observations from a re-analysis of the deposited data

Results flagged for a closer look

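In the library labelled left 1038, which was kept out of the comparison of sides as designed and entered only the alternatives with all 6 libraries, 2 members stood above all right bulbs beyond counting error. Bax stood at 28.8 CPM (95% Poisson interval 26.1 to 31.6 CPM), against 17.6, 13.8 and 15.8 CPM in right bulbs. Bcl2l1 stood at 114.5 CPM (109.04 to 120.1 CPM), against 72.2, 73.7 and 75.9 CPM in right bulbs. This library has no replicate here, so these are single values. Of all genes tested, 35.2% lay above the range of the other 5 libraries in it. Its granule cell and Purkinje cell lists of the cerebellum summed to 4858 and 5438 CPM. How many of all genes lay beyond counting error was not counted.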

How the results depend on the processing

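The 10 members gave 2 calls as designed, both lower, and 3 with library totals (2 higher, 1 lower), 2 each without a filter, with a 1 CPM filter and with limma-voom (Bcl2 lower and Bbc3 higher in place of Bcl2l2), 1 with RLE size factors or DESeq2, 0 with DESeq2 and the mouse as a replicate block, 0 with all 6 libraries, with or without the block, and 0 to 1 when 1 library was left out. The edgeR fit with the replicate block called 2, with Bbc3 in place of Bcl2l2, and changed no other call of a member. Of all genes, 1387 were called as designed, 429 with DESeq2 and the block, 0 with all 6 libraries (1196 at an unadjusted p under 0.05), 0 with all 6 and the block (671), and 660 to 1096 with a library left out. The 11 lists gave 9 calls, 3 with DESeq2 and the block, 0 with all 6 libraries without or with the block (8 and 5 at an unadjusted p under 0.05), and 6 to 10 with a library left out. No other tool was run on the 6 libraries. Signs turned for values near 0: Bak1 was -0.073 and -0.080 with all 6 libraries without and with the block, -0.064 without left 1037 and -0.032 without right 1037, in a range of -0.064 to 0.116 over the libraries left out. Bcl2l1 was 0.029 with library totals and 0.219 and 0.180 with all 6 libraries. Mcl1 was 0.058 with library totals, 0.003 without left 1037 and 0.066 without right 1037, in a range of -0.074 to 0.066, and Mapk10 was 0.018 with all 6 libraries. The cause was not tested. Without a left library the lone one left is assumed to vary like the right bulbs. With the longest transcript in place of all exons Bcl2l1, at 28.8 CPM per kb in right bulbs, stood above Bcl2l2 at 27.9, and the pair overlapped.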
